A study of Mus musculus with 2 samples.

Results

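Fc receptors are the cell surface and intracellular proteins through which cells sense the constant part of antibodies, and 9 of their genes were followed here across the immune cells of the mouse meninges. The genes were taken by name from the 32285 genes of the count tables, and all 9 were found there once each: Fcer1g, Fcgr1, Fcgr2b, Fcgr3, Fcgr4, Fcgrt, Fcer2a, Fcmr and Fcrls. Single cells sorted as live singlets from the dorsal meninges gave 2 RNA-seq libraries, both of male mice (C57BL/6 in the labels, C57BL/6J in the study's methods) whose age is given as 10 weeks in one label and as 10-12 weeks in another. One library pooled the meninges of 5 mice that had a Sham procedure 1 week earlier, and the other pooled those of 5 mice that had a mild closed-skull traumatic brain injury (TBI) 1 week earlier. Pooling leaves 1 library per group, so no difference between Sham and TBI has a replicate check, no test was made, and every interval given is a 95% interval that covers counting error only.

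Most receptors for IgG pair a ligand-binding alpha chain with the signalling adaptor that Fcer1g encodes, the common gamma chain, whose phosphorylation recruits the kinase Syk and drives phagocytosis and cytokine release. Fcgr1, Fcgr3 and Fcgr4 encode such activating alpha chains, while Fcgr2b encodes the inhibitory receptor, which recruits a phosphatase and raises the threshold for activation in myeloid cells and B cells. The remaining members have other roles: Fcgrt encodes the neonatal Fc receptor, which salvages IgG inside cells, Fcer2a the low-affinity IgE receptor of B cells (CD23), Fcmr the IgM receptor, and Fcrls a scavenger receptor-like member of the family that is a known marker of microglia and some tissue macrophages.

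In the mouse genome (GENCODE positions on GRCm38) Fcgr2b, Fcgr4 and Fcgr3 are neighbours on chromosome 1. Fcgr2b spans 170958617 to 170976547 on the minus strand, Fcgr4 spans 171018920 to 171029761 on the plus strand and Fcgr3 spans 171051174 to 171064935 on the minus strand, with 0 protein-coding genes in the gaps of 42372 and 21412 bases between them. Fcer1g follows at 171229572 to 171234365 on the minus strand, and Fcmr lies apart on the same chromosome at 130865669 to 130880791 on the plus strand. Fcrls (87250758 to 87263738) and Fcgr1 (96282909 to 96293969) are both on the minus strand of chromosome 3, Fcgrt is on the minus strand of chromosome 7 at 45092990 to 45103851, and Fcer2a is on the minus strand of chromosome 8 at 3681737 to 3694175. Of the 9 genes, Fcgr2b and Fcgrt each overlap an annotated antisense gene, Gm38204 and Gm45669, that has a row of its own in the count tables.

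The promoters of the 4 IgG receptor alpha chains are shown because 3 of them, Fcgr2b, Fcgr4 and Fcgr3, sit side by side in the genome. Of these 3, Fcgr2b differs from the others in which meningeal cells hold its transcripts. Each line gives, 5′ to 3′ on the gene's strand, the 300 bases from 250 before the RefSeq start site to 50 from it on (GRCm38.p6), at chr3:96293920-96294219 for Fcgr1 (minus strand), chr1:171059354-171059653 for Fcgr3 (minus strand), chr1:171018676-171018975 for Fcgr4 (plus strand) and chr1:170976022-170976321 for Fcgr2b (minus strand). Capitals mark matches, on either strand, of GAGGAA, the core of the site bound by the myeloid factor PU.1, and of TTCNNNGAA, the interferon-gamma activated sequence (GAS) bound by STAT factors.
Fcgr1: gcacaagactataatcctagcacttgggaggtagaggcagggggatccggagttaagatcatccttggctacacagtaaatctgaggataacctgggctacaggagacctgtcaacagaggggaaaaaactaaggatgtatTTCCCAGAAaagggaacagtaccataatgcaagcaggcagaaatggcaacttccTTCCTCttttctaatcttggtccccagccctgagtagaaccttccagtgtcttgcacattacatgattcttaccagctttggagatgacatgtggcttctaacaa
Fcgr3: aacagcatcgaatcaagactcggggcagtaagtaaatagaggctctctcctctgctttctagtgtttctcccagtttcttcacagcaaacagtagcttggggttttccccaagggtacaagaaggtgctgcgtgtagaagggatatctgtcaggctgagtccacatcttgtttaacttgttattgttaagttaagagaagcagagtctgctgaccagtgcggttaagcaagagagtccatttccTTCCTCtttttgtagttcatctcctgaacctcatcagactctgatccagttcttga
Fcgr4: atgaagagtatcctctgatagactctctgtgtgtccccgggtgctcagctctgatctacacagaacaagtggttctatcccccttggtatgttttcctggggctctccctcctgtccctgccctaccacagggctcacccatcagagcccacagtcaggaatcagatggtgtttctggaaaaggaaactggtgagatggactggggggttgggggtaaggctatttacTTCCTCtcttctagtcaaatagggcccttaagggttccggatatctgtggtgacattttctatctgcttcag
Fcgr2b: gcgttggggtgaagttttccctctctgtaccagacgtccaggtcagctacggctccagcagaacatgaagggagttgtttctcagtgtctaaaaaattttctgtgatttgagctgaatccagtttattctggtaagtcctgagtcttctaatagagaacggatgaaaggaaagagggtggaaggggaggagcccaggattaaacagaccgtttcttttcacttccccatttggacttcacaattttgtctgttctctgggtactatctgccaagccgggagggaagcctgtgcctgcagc
The Fcgr1 window holds both motifs, a GAS match at -109 to -101 and a PU.1 core at -55 to -50 from the start site. The Fcgr3 and Fcgr4 windows each hold 1 PU.1 core, at -6 to -1 and -22 to -17, and the Fcgr2b window holds neither motif. The windows of Fcgr3 and Fcgr2b lie inside the gene spans given above, not at their ends. Another Fcgr3 start site, not shown, has a PU.1 core at -15 to -10. Among the other members, Fcmr and Fcrls also have a PU.1 core match, while Fcer1g, Fcgrt and Fcer2a, like Fcgr2b, have neither motif. Thus 5 of 9 genes have a PU.1 core match and 1 has a GAS match, counted over the 12 promoters of these genes. Over all 32851 RefSeq promoters of this length, 28.3% hold the PU.1 core and 8.30% hold the GAS letters. These shares count single promoters and the counts of members count genes, some with more than 1 promoter, so the values are not like for like. A match is a description of letters and was not tested as a binding site.

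The 2043 Sham and 3773 TBI cells kept held 7866611 and 13940740 UMIs, with medians of 2764 and 2663 UMIs per cell, and 14 cell barcodes occurred in both libraries. Clustering both libraries together gave 27 clusters, of which 21 carried enough markers to be named, in 17 classes, 11 of them immune with 1392 Sham and 2008 TBI cells. The 9 genes and their signalling partners were left out of the genes that made the clusters, and all markers of each of the 11 immune classes were higher in that class than in the other cells. The cells clustered and the cells measured are still the same cells, so a class against the rest is described and not tested. Levels are unique molecular identifiers (UMIs, which count captured transcripts) of a gene per 1e6 UMIs of the class (CPM), and since 3′ libraries do not capture all genes equally well, they are compared between cells and not between genes.

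Fcer1g was found at its highest in monocyte-like, macrophage-like and NK-like cells. Its level was 4063 CPM in Sham and 4199 CPM in TBI in the monocyte-like cells (33 and 44 cells), 3643 and 3711 CPM in the macrophage-like cells (338 and 717 cells) and 3825 and 3126 CPM in the NK-like cells (93 and 90 cells). These 3 classes changed order between the libraries, and neighbouring classes were not apart beyond counting error in both. NK cells use the gamma chain with Fcgr3 for antibody-dependent killing, and the NK-like cells were the only lymphoid class at the level of the myeloid ones.
Next came neutrophil-like cells with 2081 and 2449 CPM, dendritic-like cells with 1691 and 1490.4 CPM and plasmacytoid dendritic-like cells with 1456 and 1345 CPM, again with no gap between neighbours that held in both libraries. The migratory dendritic-like cells were apart below these, at 490.1 and 406 CPM.
T cell-like cells had 234 and 371 CPM, B cell-like cells 4.41 and 67.9 CPM and ILC2 or Th2-like cells 40.4 and 8.22 CPM. With each cell thinned to 1000 UMIs, so that depth is the same in all, Fcer1g was detected in 96.1% of macrophage-like, 98.6% of monocyte-like and 91.9% of NK-like cells of both libraries, against 1.15% of B cell-like cells. Before thinning these shares were 98.0%, 94.8%, 92.9% and 2.98%.

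**Figure D1:**
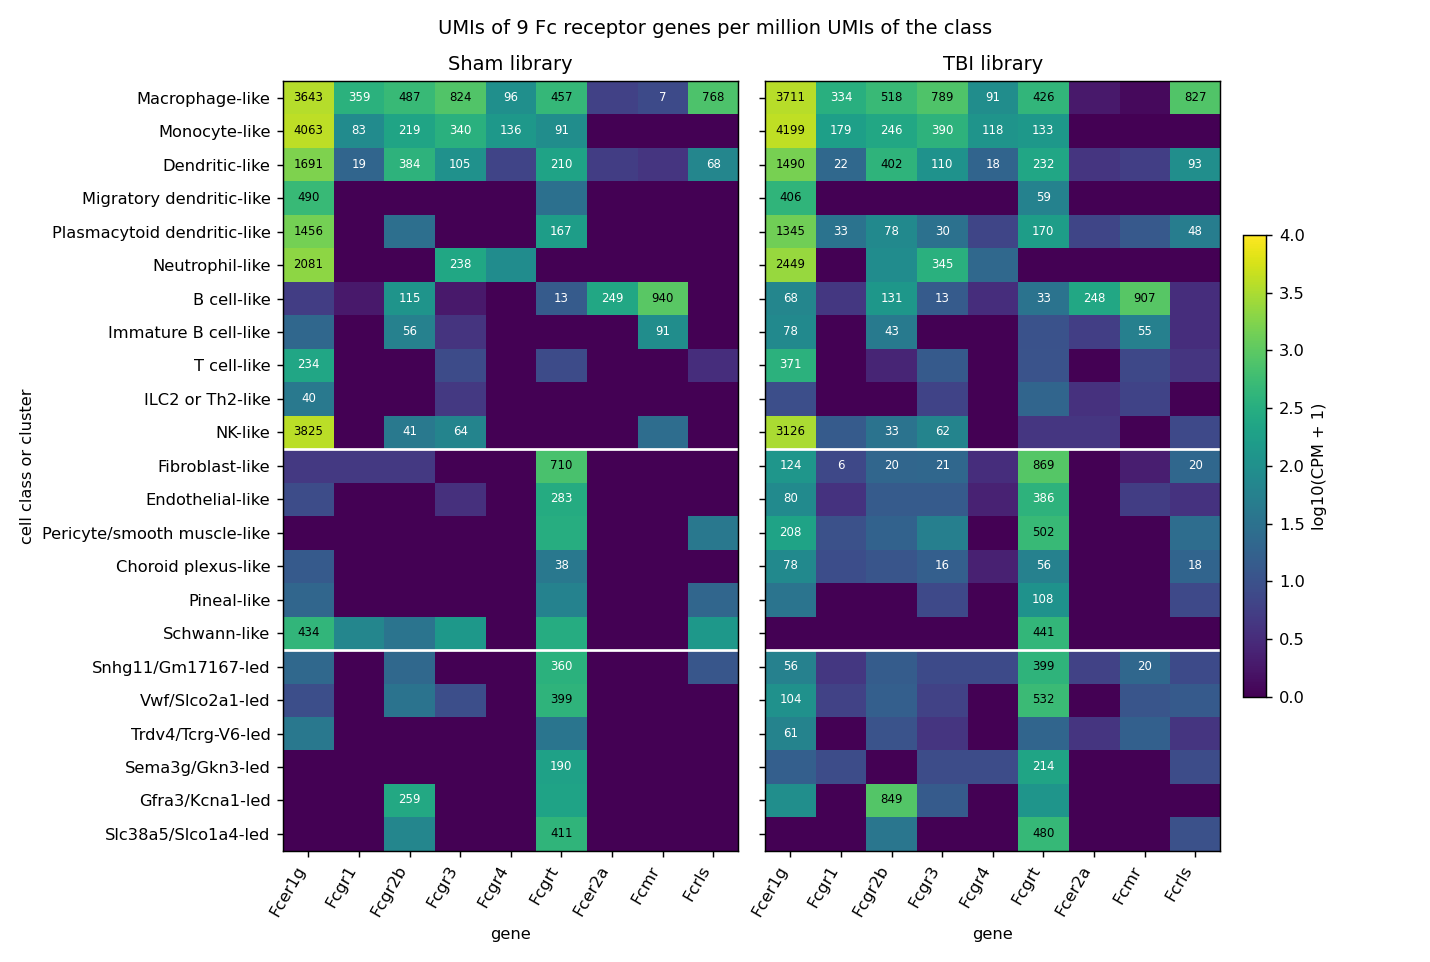
Level of each of the 9 Fc receptor genes (columns) in each cell class or unnamed cluster (rows) in the Sham and TBI libraries, with log10(CPM + 1) as colour and the CPM printed where the class holds at least 10 UMIs of the gene in that library. The upper block of rows is the immune classes, the middle block the non-immune classes and the lower block the unnamed clusters. The Sham and TBI panels look alike for most rows. Among the exceptions are Fcer1g of several non-immune rows and of B cell-like cells, Fcgr3, Fcrls and Fcgr2b of fibroblast-like cells, and Fcgr2b of the Gfra3/Kcna1-led cluster.

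Most UMIs of the activating IgG receptors lay in macrophage-like cells, with 83.5% of Sham and 86.2% of TBI Fcgr3 UMIs and 83.1% and 80.9% of Fcgr4 UMIs. Such shares follow the size of a class as well as its level. The Fcgr4 level was 95.7 and 91.1 CPM in macrophage-like and 136 and 118 CPM in monocyte-like cells, which were not apart. Fcgr1, the high-affinity receptor (CD64), was at 359 CPM in Sham and 334 CPM in TBI in macrophage-like cells. In monocyte-like cells it was at 83.1 and 179 CPM from 11 and 35 UMIs, and in dendritic-like cells at 19.3 and 21.5 CPM. Macrophage-like cells were apart from every other class in both libraries, with 92.5% of its UMIs in Sham and 90.8% in TBI. After thinning to 1000 UMIs, 27.9% and 25.9% of macrophage-like cells had an Fcgr1 UMI (53.3% and 60.1% before thinning, and 80 and 88 shallower cells were left out), while 0 of 94 Sham and 0 of 162 TBI T cell-like cells had one before thinning, which allows a share of up to 3.19% and 1.85% (median depths of 4029.5 and 3405.5 UMIs in T cell-like and 2990.5 and 4486 in macrophage-like cells).

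Fcgr3, the low-affinity receptor (CD16), was at 824 and 789 CPM in macrophage-like cells, at 339.9 and 389.7 CPM in monocyte-like cells and at 238 and 345 CPM in neutrophil-like cells. The macrophage-like level was above that of monocyte-like cells in both libraries, whereas monocyte-like and neutrophil-like cells were not apart. Dendritic-like cells followed at 105 and 110.2 CPM and NK-like cells at 63.9 and 62.1 CPM, the latter from 22 and 19 UMIs. The NK-like cells thus combined one of the highest Fcer1g levels with few Fcgr3 UMIs, and after thinning 4.55% of Sham and 9.41% of TBI NK-like cells had an Fcgr3 UMI, against 1.10% and 2.47% of T cell-like cells. Before thinning the shares were 16.1% and 14.4% of NK-like and 1.06% and 3.70% of T cell-like cells.

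Fcgr4 was the sparsest activating receptor gene, with 580 UMIs in all. It was at 136 and 118 CPM in monocyte-like cells (18 and 23 UMIs), at 95.7 and 91.1 CPM in macrophage-like cells (152 and 321 UMIs) and at 86.7 and 21.6 CPM in neutrophil-like cells (4 and 2 UMIs). The order of these 3 classes was not resolved at this depth. In dendritic-like cells 9 Sham and 36 TBI UMIs gave 5.60 and 18.5 CPM, and 22 of the TBI UMIs against 1 of the Sham UMIs lay in a cluster led by Clec9a and Xcr1, markers of cross-presenting dendritic cells. These 22 UMIs came from 7 cells, 1 of which held 50% of them, and the class stayed under the limit of 50 UMIs set for a call.

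Fcgr2b, the inhibitory receptor, was spread over more of the immune cells, and macrophage-like cells held a smaller share of its UMIs than of those of each activating alpha chain. It was at 487 CPM in Sham and 518 CPM in TBI in macrophage-like cells, at 384 and 402 CPM in dendritic-like cells, at 219 and 246 CPM in monocyte-like cells and at 115 and 131 CPM in B cell-like cells. Each step in that order was apart in both libraries by counting error. Of the monocyte-like UMIs, 1 cell held 27.6% in Sham and 1 cell held 27.1% in TBI. The intervals do not cover this spread between cells, so the step from monocyte-like to B cell-like cells is less sure. Below it, plasmacytoid dendritic-like cells were at 27.9 and 77.7 CPM (4 and 26 UMIs) and neutrophil-like cells at 0 and 86.3 CPM (0 and 8 UMIs). Immature B cell-like cells were at 55.9 and 43.4 CPM and NK-like cells at 40.7 and 32.7 CPM, and T cell-like cells held 0 and 1 UMIs.
Macrophage-like cells had 48.1% of all Fcgr2b UMIs in Sham and 61.4% in TBI, dendritic-like classes together 38.6% and 27.3%, and the B cell-like and immature B cell-like classes 9.27% and 4.41%.

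The balance between the inhibitory and the activating receptors therefore differed between classes. Fcgr2b made up 27.6% (25.9% to 29.3%) of the UMIs of the 4 alpha chain genes in Sham macrophage-like cells and 29.9% (28.7% to 31.0%) in TBI ones, and 28.2% and 26.4% in monocyte-like cells. In dendritic-like cells the share was 74.8% (71.7% to 77.7%) in Sham and 72.8% (70.1% to 75.5%) in TBI. In B cell-like cells, which are known to carry Fcgr2b as their only IgG receptor, it was 98.5% (94.6% to 99.8%) in Sham and 87.5% (80.5% to 92.7%) in TBI. The B cell-like interval of TBI lies below that of Sham, since 2 UMIs of Fcgr1, Fcgr3 and Fcgr4 in Sham stood against 16 in TBI. Of the TBI UMIs 11 were of Fcgr3, and 1 cell held 63.6% of these. The intervals do not cover this spread between cells. The markers of macrophages stood at 38.8 CPM in the Sham and 403 CPM in the TBI B cell-like cells (12 markers summed, 2 and 0 of them at 0). The part of macrophage RNA in the difference between the B cell-like shares was not tested. The Fcgr2b share counts UMIs and not protein.

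**Figure D2:**
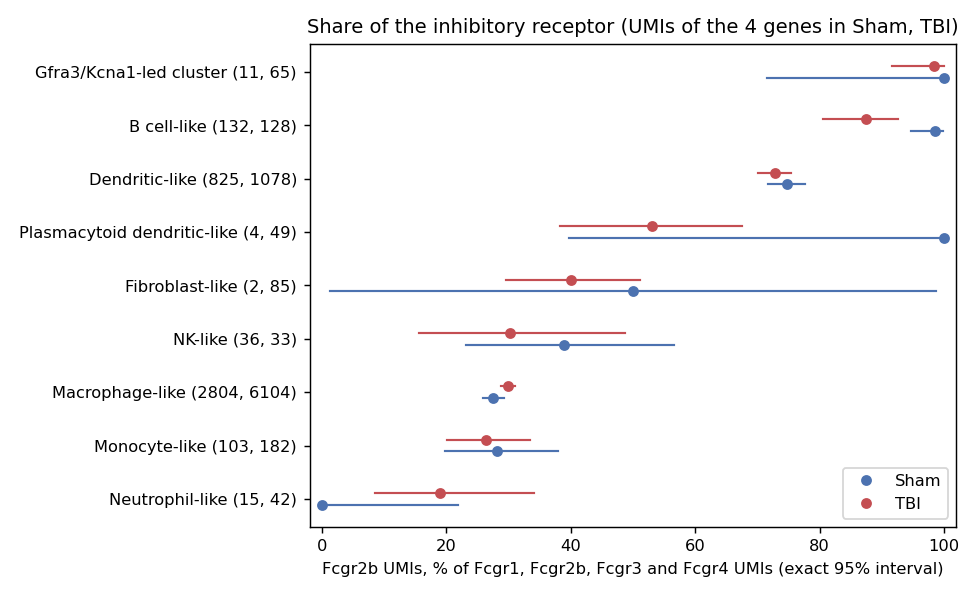
Share of Fcgr2b among the UMIs of Fcgr1, Fcgr2b, Fcgr3 and Fcgr4 (x axis, percent) by class or cluster with at least 50 such UMIs, in the Sham and TBI libraries, with exact 95% binomial intervals as lines and the UMIs of the 4 genes in Sham and TBI in brackets. The macrophage-like class sits at 27.6% and 29.9%, the dendritic-like class at 74.8% and 72.8% and the B cell-like class at 98.5% and 87.5%.

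Within single cells thinned to 1000 UMIs, 24.0% of Sham and 24.6% of TBI macrophage-like cells had UMIs of both Fcgr2b and an activating alpha chain. A further 46.9% and 42.1% had an activating alpha chain alone, and 9.30% and 10.8% had Fcgr2b alone. Among dendritic-like cells the order was turned, with 21.6% and 28.7% having Fcgr2b alone and 7.60% and 9.96% an activating alpha chain alone. In B cell-like cells 10.2% and 11.2% had Fcgr2b alone and 0.300% and 0.722% an activating alpha chain alone. In T cell-like cells 0% and 0.617% had Fcgr2b alone and 1.10% and 2.47% an activating alpha chain alone, in a class that should lack these genes. Before thinning, cells with both were 53.6% and 65.3% of macrophage-like and 26.8% and 26.0% of dendritic-like cells, and cells with Fcgr2b alone 3.55% and 2.79% against 29.1% and 32.5%. At this depth a missing UMI does not show that the gene is off.

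One cluster outside the immune classes was among the highest for Fcgr2b. It had 19 Sham and 36 TBI cells and was led by Gfra3 and Kcna1, with the Schwann cell gene Sox10 among its leading genes, and too few markers led it for a name. Its Fcgr2b level was 259 CPM in Sham from 11 UMIs and 849 CPM in TBI from 64 UMIs, a log2 ratio of 1.66 (0.78 to 2.79), in a cluster where 16.5% of 352 tested genes were past 1.5-fold. The UMIs were spread over 6 of 19 and 15 of 36 cells, and 1 TBI cell held 17 of them. Fcgr3 had 1 UMI and Fcer1g 7 UMIs in the same 55 cells, and the 12 macrophage markers together had 32 UMIs. Of the UMIs of the 4 alpha chain genes in this cluster 98.7% were Fcgr2b.

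Fcgrt was the only one of the 9 genes whose highest named class lay outside the immune classes. Fibroblast-like cells had 709.5 CPM in Sham and 869 CPM in TBI (67 and 460 cells), above every other named class in both libraries. Macrophage-like cells had 457 and 426 CPM, endothelial-like cells 283 and 386 CPM, and the cluster led by Vwf and Slco2a1, an endothelial gene pair, 399 and 532 CPM. These vascular and macrophage levels were not apart from their neighbours in both libraries.
Among the other immune classes, dendritic-like cells had 209.8 and 232 CPM, plasmacytoid dendritic-like cells 167 and 170.3 CPM and monocyte-like cells 90.6 and 133 CPM. Without predicted doublets the plasmacytoid dendritic-like UMIs went from 24 in Sham and 57 in TBI to 24 and 28. That is a log2 ratio of -0.62, past 1.5-fold, against 0.01 with them. Its interval and the share of all genes past 1.5-fold in this class are not given here, so no decrease is read from it. Neutrophil-like cells had 0 Fcgrt UMIs in both libraries, which in 16 and 26 cells allows a share of up to 18.8% and 11.5% of cells with a UMI, and B cell-like cells had 13.2 and 32.8 CPM. The non-immune classes and unnamed clusters held 29.3% of Fcgrt UMIs in Sham and 53.7% in TBI, beside a fibroblast-like share of cells of 3.28% in Sham and 12.2% in TBI.
The neonatal receptor needs beta-2-microglobulin as its light chain, and B2m was detected in every class, with 794 and 628 CPM in fibroblast-like, 2095 and 2011 CPM in macrophage-like and 4253 and 5592 CPM in migratory dendritic-like cells. Fcgrt and B2m thus did not share their order of classes.

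Fcer2a and Fcmr were B cell genes. Fcer2a was at 249 CPM in Sham and 248 CPM in TBI in B cell-like cells (282 and 212 UMIs), while immature B cell-like cells had 0 and 2 UMIs. B cell-like and immature B cell-like cells held 94.9% and 92.6% of its UMIs. Fcmr was at 940.3 and 907 CPM in B cell-like cells and at 91.2 and 54.8 CPM in immature B cell-like cells, a gap that held in both libraries. T cell-like cells had 0 and 4 Fcmr UMIs.
The B cell-like class consisted of 2 clusters, and Fcer2a separated them further than Fcmr. In the cluster led by Ighd and Cr2, genes of mature B cells, Fcer2a was at 509 and 472 CPM against 122 and 148 CPM in the cluster led by Igkv19-93 and Ms4a1. The corresponding Fcmr levels were 1099 and 1103 CPM against 863 and 818 CPM, and those of Fcgr2b were 97.0 and 106 CPM against 123 and 143 CPM. Over both libraries the log2 ratio of the first cluster to the second was 1.89 (1.62 to 2.16) for Fcer2a, 0.38 (0.25 to 0.52) for Fcmr and -0.38 (-0.82 to 0.03) for Fcgr2b.

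Fcrls was a macrophage gene with a tail in dendritic-like cells. Its level was 768 CPM in Sham and 827 CPM in TBI in macrophage-like cells and 67.9 and 92.8 CPM in dendritic-like cells, and monocyte-like and neutrophil-like cells had 0 UMIs in both libraries. Macrophage-like cells held 91.2% and 91.5% of all Fcrls UMIs. After thinning, 44.2% of Sham and 48.6% of TBI macrophage-like cells had an Fcrls UMI (55.3% and 68.1% before thinning), against 0% and 0.617% of T cell-like cells (1.06% and 1.23%).
Monocyte-like cells were thus among the highest for Fcer1g and Fcgr4 and without a UMI of Fcrls, whereas macrophage-like cells had all 3.

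The 2 dendritic-like clusters also differed in their receptors, and the cluster led by Cd209a and Ccl17 was sampled more deeply than that led by Clec9a and Xcr1, with a median of 9573 UMIs per cell against 1128. In the Cd209a-led cluster Fcer1g was at 1975 CPM in Sham and 1883 CPM in TBI, against 668 and 594 CPM in the cluster led by Clec9a and Xcr1. Fcgr2b was at 434 and 495 CPM against 206 and 190.1 CPM, and Fcgr3 at 122 and 137 CPM against 43.0 and 48.8 CPM. The Fcgr2b share of alpha chain UMIs was 74.7% in both libraries in the first cluster and 75.8% and 63.1% in the second (difference -12.7 points, -23.8 to -0.52). Fcrls was nearly level, at 67.6 and 91.4 CPM against 68.8 and 95.9 CPM. The unequal depth of the clusters moves with these differences and its part was not tested.

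The comparison of TBI with Sham addresses the meninges 1 week after injury, here for their antibody-sensing genes. Only genes with at least 50 UMIs in a class over both libraries were compared there. Of the 9 genes, 7 met this limit in macrophage-like cells, and 0 of these 7 were past 1.5-fold in either direction, where 7.03% of all 7728 genes tested were. Fcer1g had a log2 ratio of TBI over Sham of 0.03 (-0.02 to 0.07), Fcgr1 -0.10 (-0.25 to 0.05, and 0.036 with counts per 10000 averaged over cells), Fcgr3 -0.06 (-0.16 to 0.03) and Fcgr4 -0.07 (-0.35 to 0.22). Fcgr2b had 0.09 (-0.03 to 0.21), Fcgrt -0.10 (-0.23 to 0.03) and Fcrls 0.11 (0.01 to 0.20). The Fcrls ratio was -0.057 when the Sham shares of the 3 macrophage-like clusters were applied to both libraries. All 7 intervals lie within 1.5-fold, and the median of the 7 genes, -0.06, stood beside a median of 0.01 over all genes tested. The Fcgr2b share of alpha chain UMIs was higher in TBI by 2.31 percentage points (0.27 to 4.33).

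Over the 11 immune classes, 27 of the 99 pairs of a gene and a class had at least 50 UMIs. Of these 27 pairs 3 were past 1.5-fold, beside 9.13% of all 32598 pairs of genes and classes tested. Higher in TBI were 2 of them, beside 5.33%, and lower was 1, beside 3.79%. The pairs were Fcer1g in B cell-like and in T cell-like cells, and Fcmr in immature B cell-like cells. The last rests on 31 Sham and 24 TBI UMIs in a class where 10.6% of genes were past 1.5-fold, and its log2 ratio of -0.73 (-1.57 to 0.08) has an interval that includes no difference. Among the pairs within 1.5-fold, the interval excluded no difference for Fcer1g in NK-like cells (-0.29, -0.41 to -0.17), Fcer1g in dendritic-like cells (-0.18, -0.26 to -0.11, with -0.07 and -0.17 in its 2 clusters, whose intervals include no difference), Fcrls in dendritic-like cells (0.45, 0.10 to 0.81) and Fcrls in macrophage-like cells. The spread between mice cannot be read from 1 library per group.

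**Figure D3:**
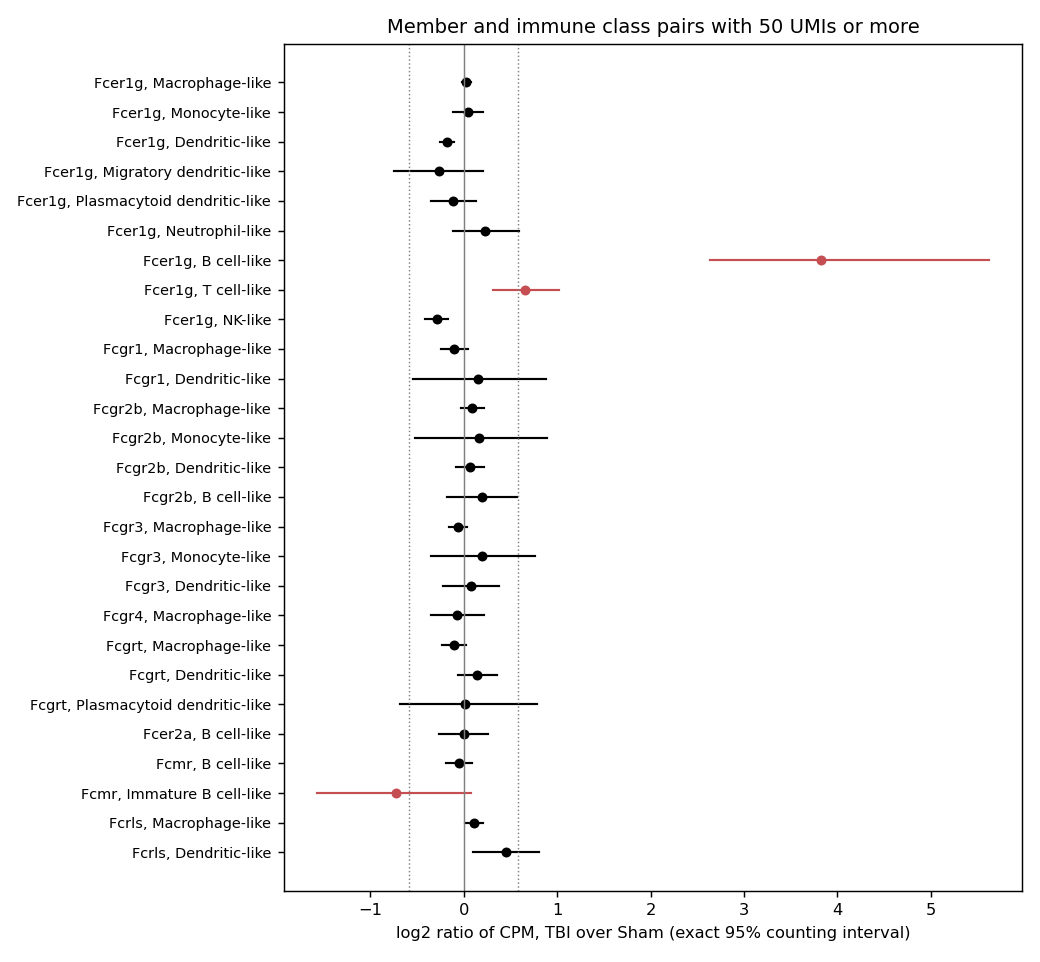
Log2 ratio of CPM, TBI over Sham (x axis), for the 27 pairs of a member gene and an immune class with at least 50 UMIs over both libraries. Points are ratios and lines exact 95% counting intervals, dotted lines mark 1.5-fold, and red marks the 3 pairs past it, of which Fcer1g in B cell-like cells lies far from the rest.

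Fcer1g in B cell-like cells went from 5 UMIs in 371 Sham cells to 58 UMIs in 301 TBI cells, 4.41 against 67.9 CPM (log2 ratio 3.82, 2.64 to 5.62), where 8.73% of genes tested were past 1.5-fold. The TBI UMIs came from 16 cells, and 1 cell held 24 of them. Classes that have no known use of the gamma chain stood at like levels: fibroblast-like cells had 3.66 CPM in Sham and 124 CPM in TBI, endothelial-like cells 7.66 and 79.6 CPM and choroid plexus-like cells 12.8 and 77.6 CPM. The 12 macrophage markers moved with them, from 62.2 to 1189 CPM in fibroblast-like, from 56.1 to 398 CPM in endothelial-like and from 25.6 to 787 CPM in choroid plexus-like cells.
Without the 33 Sham and 114 TBI cells predicted to be doublets, the B cell-like class kept 5 and 13 Fcer1g UMIs, 4.43 and 16.1 CPM, and the fibroblast-like class 4.41 and 29.4 CPM. The number of predicted doublets was fixed by the size of each library, at 1.62% of Sham and 3.02% of TBI cells. More TBI cells were therefore removed by design. In B cell-like cells with fewer than 3 macrophage marker UMIs the levels were 2.66 and 17.2 CPM from 3 and 14 UMIs. The log2 ratios of B cell-like cells were then 1.78 (0.28 to 3.70) and 2.52 (0.85 to 5.14), both under the limit of 50 UMIs, and these filters were chosen after seeing the data. The part of macrophage RNA in the difference was not tested.

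In T cell-like cells Fcer1g went from 99 UMIs in 94 Sham cells to 233 UMIs in 162 TBI cells, 234 against 371 CPM (log2 ratio 0.66, 0.32 to 1.02), where 8.19% of 3065 genes tested were past 1.5-fold. The UMIs lay in 18 Sham and 41 TBI cells. Without predicted doublets the levels were 234 and 395 CPM, and in cells with fewer than 3 macrophage marker UMIs 237 and 366 CPM. The 12 macrophage markers summed to 47.3 and 108 CPM, with 6 and 0 of them at 0. Per 100 macrophage marker UMIs the T cell-like cells had 495 and 343 Fcer1g UMIs, where macrophage-like cells had 9.02 and 8.61 and B cell-like cells 11.4 and 16.9. After thinning, 8.79% (3.87% to 16.6%) of Sham and 16.05% (10.8% to 22.6%) of TBI T cell-like cells had an Fcer1g UMI (19.1% and 25.3% before thinning), and these intervals overlap. NK-like cells, a further possible source, stood at 3825 and 3126 CPM of Fcer1g. Whether the cells with Fcer1g are a separate kind of T cell, and the part of NK cells or their RNA, was not tested.

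**Figure D4:**
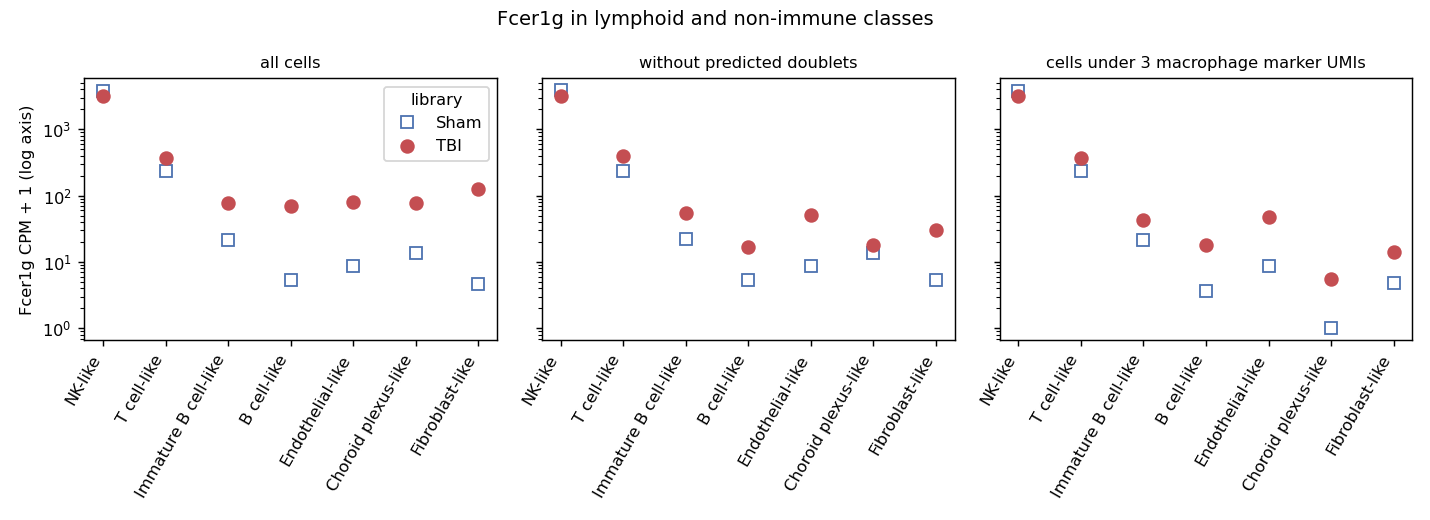
Fcer1g level, as CPM + 1 on a log axis, in 7 lymphoid and non-immune classes (x axis) in the Sham and TBI libraries, for all cells (left), without predicted doublets (middle) and in cells with fewer than 3 macrophage marker UMIs (right). NK-like and T cell-like cells keep their levels in all panels, while the TBI points of fibroblast-like, B cell-like and choroid plexus-like cells drop by the right panel.

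Over the whole libraries, levels also carry the share of each class among the cells. Fcer2a went from 37.8 CPM of all UMIs in Sham to 16.6 CPM in TBI (log2 ratio -1.19, -1.44 to -0.94) and Fcmr from 143 to 60.5 CPM (-1.24, -1.37 to -1.11), while within B cell-like cells their ratios were -0.0014 (-0.27 to 0.26) and -0.05 (-0.19 to 0.08). B cell-like cells were 18.2% of Sham and 7.98% of TBI cells. Fcgrt was higher over the whole TBI library, from 202 to 324 CPM (0.68, 0.60 to 0.77), beside 0.29 (0.08 to 0.52) within fibroblast-like, 0.44 (0.12 to 0.78) within endothelial-like and -0.10 within macrophage-like cells. In fibroblast-like cells 19.3% and in endothelial-like cells 8.84% of the genes tested were past 1.5-fold, and Fcgrt was past it in neither. In pericyte or smooth muscle-like cells Fcgrt went from 309 CPM (8 UMIs) to 502 CPM (58 UMIs), a log2 ratio of 0.63 (-0.37 to 1.98) that is past 1.5-fold in a class where 34% of the genes tested were, with an interval that includes no difference. Shares of classes rest on 1 cell suspension per group.

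The macrophage-like class consisted of 3 clusters with different receptor profiles. One was led by C5ar1, Ccl12 and Folr2 (79 Sham and 252 TBI cells), a second by Ccl8, Cd209g and Cd209f (151 and 202 cells) and the third by Slamf9, Cx3cr1 and Klra2 (108 and 263 cells). Their median depths were 5860, 1063 and 6652 UMIs per cell, so the Ccl8-led cells were much shallower than the others.
Fcrls differed widely between the clusters. It was at 1762 CPM in Sham and 1402 CPM in TBI in the C5ar1-led cells, at 891 and 1040.0 CPM in the Ccl8-led cells and at 137 and 268 CPM in the Slamf9-led cells. Fcgrt followed the same order, at 759.9 and 601 CPM, 573 and 574 CPM, and 247 and 239.8 CPM.
Fcgr4 was instead highest in the Slamf9-led cells, at 139 and 133 CPM (121 and 224 UMIs). It was at 43.6 and 60.1 CPM in the C5ar1-led cells (23 and 91 UMIs) and at 41.7 and 18.5 CPM in the Ccl8-led cells (8 and 6 UMIs). The Slamf9-led cells were apart from both other clusters in Fcrls, Fcgrt and Fcgr4 in both libraries.
Fcgr3 was at 1129 and 1003 CPM in the C5ar1-led, 833 and 620.3 CPM in the Ccl8-led and 636 and 629.8 CPM in the Slamf9-led cells, and Fcgr2b at 614 and 626 CPM, 281 and 315 CPM, and 454 and 460.0 CPM. Fcer1g differed least, between 3337 and 4357 CPM over the 3 clusters and both libraries. The Fcgr2b share of alpha chain UMIs over both libraries was 29.5% in the C5ar1-led and in the Slamf9-led cells and 24.5% in the Ccl8-led cells, where it went from 20.0% in Sham to 27.8% in TBI (difference 7.79 points, 0.84 to 14.5).

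**Figure D5:**
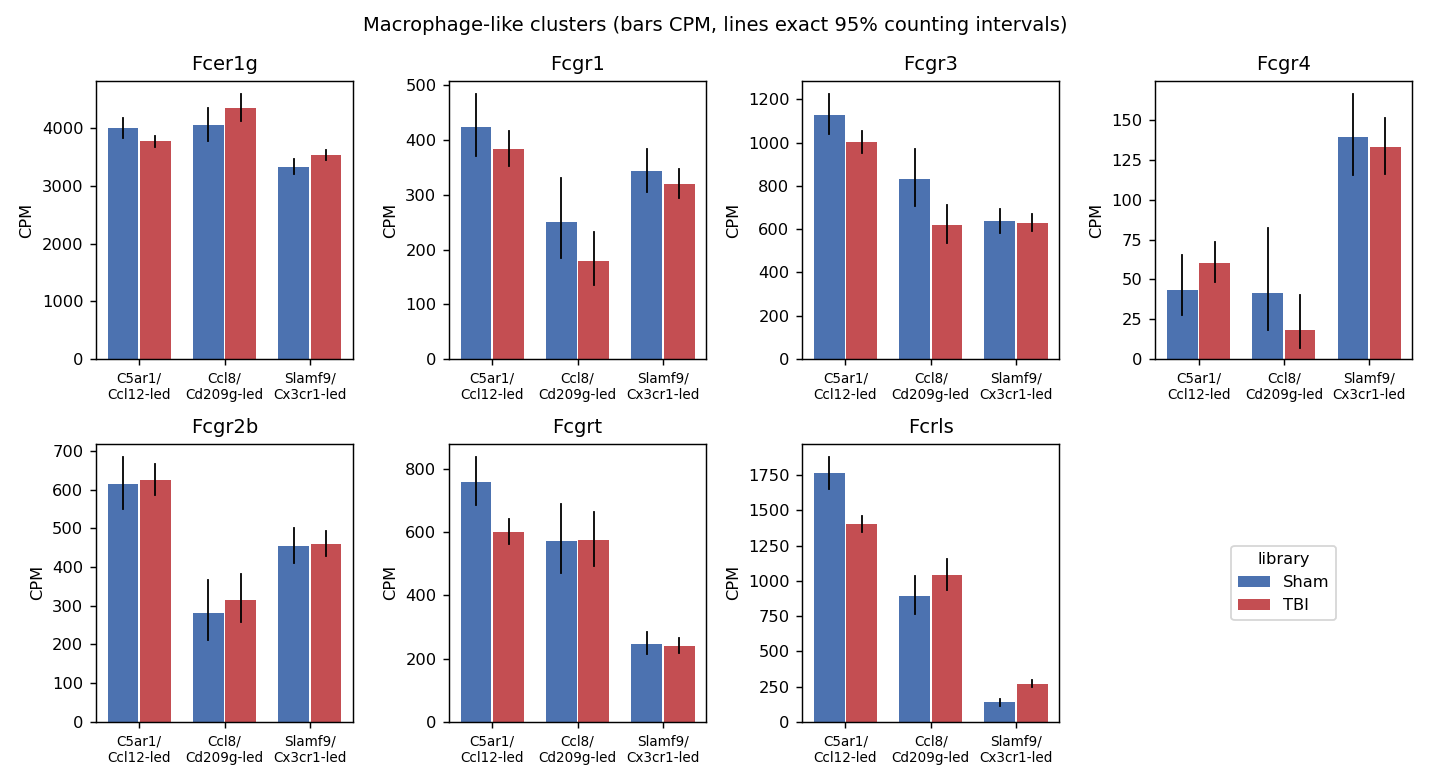
CPM of 7 Fc receptor genes (1 panel each, y axis from 0) in the 3 macrophage-like clusters (x axis) in the Sham and TBI libraries, with exact 95% Poisson intervals as lines. Fcrls and Fcgrt are lowest and Fcgr4 highest in the Slamf9-led cluster, and Fcer1g differs little between clusters.

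Within these clusters the largest Sham to TBI difference among pairs with at least 50 UMIs was that of Fcrls in the Slamf9-led cells, from 119 to 452 UMIs (log2 ratio 0.97, 0.68 to 1.27). It was the only one of the 20 pairs of a gene and a macrophage-like cluster with at least 50 UMIs that was past 1.5-fold, beside 10.2% of all pairs tested. In the C5ar1-led cells Fcrls was lower in TBI (-0.33, -0.44 to -0.22), as was Fcgrt (-0.34, -0.51 to -0.17), and in the Ccl8-led cells Fcrls was at 0.22 (-0.05 to 0.50). The difference between clusters in this ratio was not tested.
In the Slamf9-led cells 33.3% of Sham and 45.6% of TBI cells had an Fcrls UMI, 7.41% and 12.9% had at least 5, and after thinning 15.0% and 21.2% had one. The 10 cells with most Fcrls held 58.0% of its UMIs in the 108 Sham cells and 29.0% in the 263 TBI cells. The interval of the Fcrls ratio does not cover this spread between cells. Beside Fcrls, the genes most like it over the classes were measured in the Slamf9-led cells. Mrc1 had 0.50 (0.31 to 0.71), C1qa 0.21 (0.16 to 0.27) and C1qb 0.29 (0.24 to 0.34). Folr2, the only leading gene of the C5ar1-led cells given here, had 0.47 (-0.86 to 2.18, 6 and 17 UMIs). In Slamf9-led cells with 0 Mrc1 UMIs (22 Sham and 59 TBI cells), Fcrls was at 56.0 and 148 CPM from 7 and 47 UMIs. Where the border between clusters fell in each library, and its part in this ratio, was not tested.

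Genes of Fc receptor signalling were taken as 2 lists. Of the activating list (adaptors, kinases and phospholipases downstream of the gamma chain), 21 of 24 genes met the limit of 50 UMIs in macrophage-like cells, and of these 1 was past 1.5-fold higher in TBI and 2 lower, beside 4.21% and 2.82% of all genes tested. The higher gene was Fyn, a Src-family kinase, with 7.55 and 14.2 CPM from 12 and 50 UMIs (0.87, -0.02 to 1.96). The lower genes were Fgr, a further Src-family kinase, with 59 and 74 UMIs (-0.82, -1.34 to -0.30), and Plcg2, the phospholipase that releases calcium downstream of Syk, with 120 and 176 UMIs (-0.60, -0.94 to -0.25). Lcp2, an adaptor of the same pathway, had the next largest ratio at 0.19 (-0.07 to 0.46), and the median of the list was -0.05.
All 12 genes of the inhibitory list (phosphatases and adaptors that counter it) met the limit and 0 were past 1.5-fold. Cblb, a ubiquitin ligase, had 0.47 (-0.39 to 1.49) and Dok2, an adaptor, 0.45 (0.13 to 0.78), while Ptpn6, the phosphatase SHP-1, had -0.30 (-0.46 to -0.14) and Csk, the kinase that holds Src kinases inactive, -0.16 (-0.37 to 0.06). In dendritic-like cells 0 of 21 activating and 0 of 11 inhibitory genes were past 1.5-fold, beside 8.51% of all genes tested, and in monocyte-like cells 1 of 9 activating genes was lower, beside 6.24%. In NK-like cells Plcg2 (-1.13, -2.09 to -0.28) and Syk (-0.81, -1.73 to 0.02) were past 1.5-fold lower in TBI. Lat (0.61, -0.06 to 1.31) and Ptpn11 (0.61, -0.22 to 1.48) were past it higher there. All other genes of both lists with at least 50 UMIs in NK-like cells were within 1.5-fold. The share of all genes past it in NK-like cells alone is not given here. Pooled over all immune classes it was 9.13% in either direction. In B cell-like cells, of the listed genes with at least 50 UMIs only Tyrobp was past 1.5-fold, higher at 1.26 (0.84 to 1.71), beside 8.73% of all genes tested. Its level there was 61.7 CPM in Sham and 149 CPM in TBI, against 3228 and 3307 CPM in macrophage-like cells. The macrophage markers were also higher in TBI in B cell-like cells, and the part of macrophage RNA in the Tyrobp difference was not tested.

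The genes whose levels over the 17 named classes ran most like those of each member are given as descriptions, since the classes share libraries and depth. Fcer1g was most like Tyrobp, the sister adaptor DAP12, with a Pearson r of 0.95, followed by Gpr160 and Plek. Fcgr1 was most like Cx3cr1, Trem2 and Csf1r (r of 0.96, 0.96 and 0.95), Fcgr3 like Lyz2, Clec4a2 and Cd300ld (0.93, 0.93 and 0.89), Fcgr4 like Klra2, Tlr13 and Gm36161 (0.96, 0.96 and 0.95) and Fcrls like C1qa, C1qb and Mrc1 (0.95, 0.95 and 0.94).
Fcgr2b ran with Man2b1 and Cfp (0.92 and 0.85) and Fcgrt like Arsa, Tcf7l2 and Ctnnd1 (0.90, 0.88 and 0.87), Man2b1 and Arsa being lysosomal enzymes. Fcer2a was most like the immunoglobulin genes Igkv4-72, Igkv4-91 and Igkv3-5 (0.99, 0.99 and 0.99), and Fcmr like Ighv6-6, Ighv9-1 and Igkv9-124 (0.98 each).

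Fc receptor genes outside the 9 members were few and mostly of the B lineage. Fcrla, an intracellular Fc receptor-like protein of B cells, had 966 Sham and 933 TBI UMIs and was at 814 CPM in immature B cell-like and 505 CPM in B cell-like cells over both libraries. Fcrl1, a B cell surface member of the family, had 159 and 161 UMIs and was at 131 CPM in B cell-like and 15.4 CPM in immature B cell-like cells. Fcmr and Fcrla thus ran in opposite orders between immature and other B cell-like cells. Trim21, the cytosolic antibody receptor, had 107 and 167 UMIs with no class or cluster above 33.9 CPM. Fcrlb, Fcrl5, Fcrl6 and Pigr had between 1 and 33 UMIs in a library, and Fcamr had 0 in both.
The alpha and beta chains of the high-affinity IgE receptor, Fcer1a and Ms4a2, had 5 and 4 UMIs in Sham and 39 and 25 in TBI. Of these, 32 and 11 lay in 5 cells that held at least 10 UMIs of the mast cell proteases Cpa3, Mcpt4, Tpsb2 and Cma1 (1 Sham and 4 TBI cells, which formed no cluster of their own), 2 of these 5 cells holding the Fcer1a UMIs. The 4 TBI cells were counted in the dendritic-like class and held all 32 Fcer1a, 11 Ms4a2 and 57 Fcer1g UMIs. The 1 Sham cell was counted as fibroblast-like and held 0 UMIs of these genes. In the 5 cells together Fcer1a was at 1418 CPM, Ms4a2 at 487 CPM and Fcer1g, the chain they share with the IgG receptors, at 2525 CPM. The remainder lay mostly in monocyte-like cells, with 10 Fcer1a and 14 Ms4a2 UMIs.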

How the data were processed

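Dorsal meninges of 5 mice per group were pooled into 1 Sham and 1 TBI library, made with 10x Genomics 3′ v2 chemistry. The authors deposited, for each library, raw UMI counts per gene and barcode from Cell Ranger (2.1.1 in the submitters' processing notes, with the mm10 genome, while the matrix headers carry 3.1.0). The same notes name Seurat 3.9.9 and DESeq2 1.30.0, and neither was used here. The annotation release, and how reads matching both Fcgr2b and Fcgr3 were assigned, are not given in the sources used here. UMIs collapse PCR copies, and paralog counts such as those of Fcgr2b, Fcgr3 and Fcgr4 could share reads.

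From the deposited counts, barcodes with 150 to 5000 detected genes, at most 20% mitochondrial and at most 5% hemoglobin UMIs were kept: 2043 of 2699 in Sham and 3773 of 4349 in TBI. The hemoglobin limit was exceeded by 604 and 431 barcodes. The study's starting totals are below the barcodes in the files, and its filtered totals are slightly above the cells kept. Doublets were predicted by likeness to simulated doublets and left in. The number called was set beforehand at 0.8% per 1000 cells of a library (33 Sham and 114 TBI cells). It is not an estimate of how many doublets each library held. Counts scaled to 10000, 2000 variable genes without the 9 genes and the gene lists, 20 components and Leiden clustering at resolution 0.8 (leidenalg 0.10.2, scikit-learn 1.9.0) gave clusters. A cluster was named X-like from at least 3 markers among its top 50 genes by fold, so names are rebuilt and may differ from those of the study.

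UMIs were summed per class and library, with exact Poisson or binomial 95% intervals (scipy 1.17.1, numpy 2.4.6). Ratios add 0.5 to each sum, their intervals come from the exact binomial split of the UMIs between libraries, intervals of differences between shares are Newcombe intervals built on exact bounds, and a gene is called past 1.5-fold from 50 UMIs in classes with at least 15 cells per library. Classes were described as apart when their exact intervals did not overlap in both libraries. For shares of cells, each cell was thinned to 1000 UMIs and shallower cells were left out. The limit that a count of 0 allows is 3 counts. Likeness is Pearson's r of log2(CPM + 10) over the 17 named classes, among genes with at least 200 UMIs. Sequences and motifs came from RefSeq promoters (GRCm38.p6), in which all 9 genes were matched. Plots were drawn with matplotlib 3.10.9. The calculations were tested on simulated data.

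Named are the 9 genes, the other Fc receptor genes, the 2 signalling genes of largest and smallest ratio per list in macrophage-like cells (Plcg2, Fgr, Fyn, Lcp2, Dok2, Cblb, Ptpn6 and Csk), the 3 genes most like each member (1 is not reported here) and the 3 leading genes of each macrophage-like cluster. Other genes named (B2m, Mrc1, C1qa, C1qb, Sox10, the mast cell proteases and the signalling genes named in NK-like and B cell-like cells) were chosen after their values were seen. Members and lists were chosen with earlier results of these data known. Alternatives covered the genes used for clustering, resolution, doublets, filters, thinning, scaling, the minimum of UMIs and the cluster shares.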

Additional observations from a re-analysis of the deposited data

How the results depend on the processing

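No paired analysis was possible because each group is 1 library. With 1 library per group no replicate could be left out either. The 0 members past 1.5-fold in macrophage-like cells became 2 with no minimum of UMIs. Over all immune classes the count of 3 became 1 with each cell thinned to 1000 UMIs, 1 with no limit on hemoglobin UMIs and 39 with no minimum of UMIs, the last because pairs with a handful of UMIs are then counted. The cause of the other changes was not tested. Fcer1g in T cell-like cells was past 1.5-fold under every alternative run except no hemoglobin limit, and Fcmr in immature B cell-like cells was not called with no hemoglobin limit, with the members kept among the variable genes or with thinning, which leaves its 55 UMIs under the minimum. Fcer1g in B cell-like cells was not called with doublets removed, where 13 TBI UMIs fall under the minimum, or with thinning. With doublets removed Fcgrt in plasmacytoid dendritic-like cells was called instead, at -0.62, with no interval given here. Of 77 alternatives of the macrophage-like ratios, 71 moved by less than the counting error (among them Fcgr1, from -0.10 to 0.036 with counts averaged over cells, a change of sign), 5 moved further (Fcgr2b to 0.29, Fcgr3 to -0.20 and -0.23, Fcgrt to -0.26 and -0.32, from averaging over cells or thinning) and 1 turned beyond it, Fcrls at -0.057 with the Sham cluster shares applied to both libraries, against 0.11; the cause was not tested. The Fcgr2b share in macrophage-like cells was higher in TBI in all 9 alternatives, by 1.64 to 4.22 points. Chosen after seeing the data were the sums without the shallow Ccl8-led cluster and, for Fcer1g, those without predicted doublets and in cells with fewer than 3 macrophage marker UMIs (log2 ratios of 1.78 and 2.52 in B cell-like and 0.75 and 0.62 in T cell-like cells). At these depths single pairs under 50 UMIs are not resolved.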
